A study of Mus musculus with 28 samples.

Results

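Pi16 fibroblasts were examined in the outflow vein of the mouse carotid–jugular arteriovenous fistula (AVF), a surgical connection that sends arterial flow into a vein. They were picked from 3 single-cell libraries by their own transcripts, and 751 of the 16893 barcodes kept after quality filters met the rule. A kept barcode had 200 to 6000 detected genes and at most 10% of its unique molecular identifiers (UMIs, 1 per captured RNA molecule) from mitochondrial genes. Fibroblast barcodes had at least 1.5% of UMIs in *Col1a1*, *Col1a2*, *Col3a1* and *Dcn*, under 1% in *Acta2*, *Tagln*, *Myh11* and *Myl9*, and under 0.5% in *Lyz2*, *C1qa* and *C1qb*. Pi16 fibroblasts were the fibroblast barcodes with at least 3 UMIs of *Pi16* and low levels of 3 other gene groups. These limits were under 0.05% for *Inmt*, *C7*, *Fmo2* and *Gdf10*, under 0.2% for *Postn*, *Tnc* and *Cthrc1*, and under 0.1% for *Thbs4*, *Cilp*, *Comp* and *C1qtnf3*.

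All mice, male and female C57BL/6, had a 5/6 nephrectomy, which reduces kidney function, and in a later operation the end of the jugular vein was joined to the side of the carotid. Contralateral jugular veins were the controls and thus came from operated, nephrectomized mice. The single-cell libraries held 1 pool of 10 vessels each, of mixed sexes, from contralateral veins, early AVFs and late AVFs, and the labels give no day for them. The study reports later mean days for the early and late single-cell pools than for the bulk libraries of the same name, described next. A separate set of 25 bulk libraries, from whole vessels of other mice, held 7 contralateral veins (2 male and 5 female), 8 early AVFs (5 and 3), 5 mid AVFs (2 and 3) and 5 late AVFs (2 and 3), with nominal days of 3, 10 and 21 after surgery in that order.

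The adventitia is the outer, collagen-rich coat of a vessel, and its fibroblasts make and maintain the surrounding matrix. Fibroblasts that carry *Pi16*, a secreted peptidase inhibitor, together with *Dpp4*, *Cd34*, *Ly6a* and *Dpt*, are found in many tissues, often in fascia and around vessels, and are regarded as a reservoir of less specialized fibroblasts. They are known for hyaluronan-rich, microfibril-containing matrix and for expressing complement and cytokine genes. Dissociated cells keep no position, so whether these cells lay in the adventitia was not measured, and they are called Pi16 fibroblasts here.

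The 3 libraries contributed 71 Pi16 fibroblasts from contralateral veins, 22 from early AVFs and 658 from late AVFs. They made up 1.12% of the 6319 kept barcodes of contralateral veins (exact binomial 95% interval 0.879 to 1.42%). The share was 0.463% of 4753 barcodes in early AVFs (0.290 to 0.700%) and 11.3% of 5821 in late AVFs (10.5 to 12.1%). Late AVFs therefore held the largest share of the 3 libraries under the rule, and early AVFs held so few of these cells that each value from them rests on 22 cells. With 1 pool per condition there was no replicate, no test was made between conditions, and the intervals cover counting error only.

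Among fibroblast barcodes alone, Pi16 fibroblasts were 4.18% of 1697 in contralateral veins (3.28 to 5.25%), 3.53% of 623 in early AVFs (2.23 to 5.30%) and 31.7% of 2075 in late AVFs (29.7 to 33.8%). The intervals of contralateral veins and early AVFs overlapped. The limits on the other gene groups shaped these shares: *Pi16* reached 3 UMIs in 500 fibroblasts of contralateral veins (29.5%), 113 of early AVFs (18.1%) and 1357 of late AVFs (65.4%). The limit on *Inmt*, *C7*, *Fmo2* and *Gdf10*, genes of a resting fibroblast state, was exceeded by 422 of the 500, 28 of the 113 and 409 of the 1357. The limit on *Postn*, *Tnc* and *Cthrc1*, genes of activated fibroblasts, was exceeded by 8, 70 and 201 of them.

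Sequencing depth also differed. The median Pi16 fibroblast held 9449 UMIs in contralateral veins, 31721 in early AVFs and 27584 in late AVFs, so a fixed count of 3 *Pi16* UMIs was easier to reach in AVFs. Each fibroblast was then thinned to 4794 UMIs and asked for at least 2 *Pi16* UMIs at that depth, with shallower barcodes left out, which kept 849, 399 and 1956 fibroblasts. The share was then 7.30% in contralateral veins, 4.26% in early AVFs and 28.5% in late AVFs. Without the limits on the 3 gene groups, thinned fibroblasts had shares of 40.5%, 17.0% and 53.9%. The order of the libraries was kept, while the gap between late AVFs and contralateral veins narrowed.

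**Figure D1:**
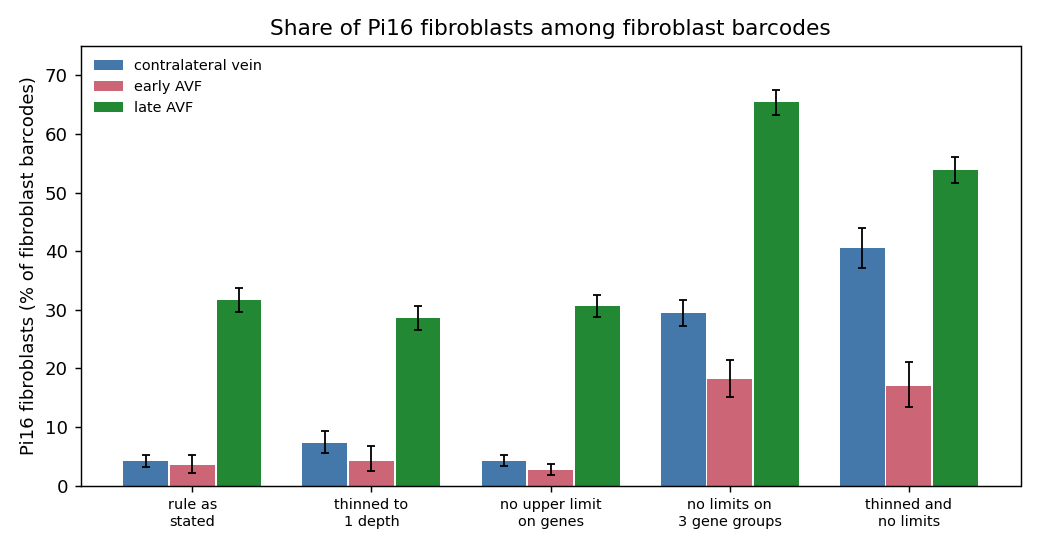
Pi16 fibroblasts as a percentage of fibroblast barcodes in the contralateral vein, early AVF and late AVF libraries (bars, with exact binomial 95% intervals), under the rule as stated and under 4 other settings. The late AVF bar is the highest in each setting, at 31.7% under the rule as stated, and the vein bar reaches 40.5% with thinning and no limits on the 3 gene groups.

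Cells that should lack *Pi16* gave the level of background RNA, to be set beside the 29.5%, 18.1% and 65.4% of fibroblasts with 3 or more *Pi16* UMIs. Of barcodes with macrophage transcripts and little collagen, 0.211% of 474 in contralateral veins, 0.348% of 2012 in early AVFs and 0.847% of 1417 in late AVFs had 3 or more *Pi16* UMIs, at median depths of 5254, 12768 and 13490 UMIs. Endothelial barcodes had 0.671%, 8.26% and 2.96%, the early value from 9 of 109 barcodes. Each share was below that of fibroblasts in the same library. Of the kept barcodes, 5, 6 and 6 sequences were shared by each pair of libraries, and 0 of them were Pi16 fibroblasts. Doublet calling worked only in late AVFs, where 11 of 658 Pi16 fibroblasts were predicted doublets.

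The upper limit of 6000 genes touched the AVF libraries more than the veins. It removed 1 cell of contralateral veins, 12 of early AVFs and 101 of late AVFs that met every other part of the rule. Without it, Pi16 fibroblasts numbered 72, 34 and 759, and were 4.22%, 2.72% and 30.7% of fibroblasts.

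The cells were then checked against their markers. *Pi16* (ENSMUSG00000024011), which the rule used, stood at 3248 CPM (a gene's summed UMIs over all UMIs of these cells, on the usual CPM scale) in contralateral veins, 1090 in early AVFs and 1870 in late AVFs, beside 556, 210 and 700 CPM in the other fibroblasts of the same libraries. *Clec3b* (ENSMUSG00000025784), which encodes the plasminogen-binding protein tetranectin, stood at 3510, 1235 and 2043 CPM. The other fibroblasts had 3580, 414 and 1419 CPM of *Clec3b*. Pi16 fibroblasts thus had more than 2-fold more in early AVFs, less than 2-fold more in late AVFs, and no more in contralateral veins. *Dpt* (ENSMUSG00000026574), which encodes the matrix protein dermatopontin, stood at 2695, 1675 and 2694 CPM, within 2-fold of the 2491, 1142 and 2397 CPM of the other fibroblasts.

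*Dpp4*, a cell-surface peptidase used to isolate these cells in other tissues, separated them more sharply. It stood at 650, 59.1 and 114 CPM in Pi16 fibroblasts against 35.4, 13.4 and 27.9 CPM in the other fibroblasts of the vein, early and late libraries. *Cd34*, a sialomucin of progenitor and stromal cells, stood at 1486, 593 and 712 CPM against 637, 310 and 432 CPM. *Ly6a*, a surface antigen of mouse mesenchymal progenitors with close paralogs, stood at 1907, 1972 and 1770 CPM against 1337, 936 and 1053 CPM. Summed over the cells, *Dpp4* and *Cd34* thus stood above the other fibroblasts in all 3 libraries. In early AVFs the *Dpp4* of the sum came mostly from the 7 cells with 30 or more *Pi16* UMIs (170 CPM), and the other 15 cells had 0 to 16.0 CPM by range of *Pi16* count, beside 13.4 CPM in the other fibroblasts, so the label did not hold for *Dpp4* there. Since the same cells and genes served to choose them, these contrasts are descriptions and carry no test.

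Genes that accompanied *Pi16* in every library were sought among 3618 genes with at least 20 UMIs in the Pi16 fibroblasts of each library. At least 2-fold more of 41 of them (1.13%) was present in Pi16 fibroblasts than in the other fibroblasts of all 3 libraries. In the single libraries, the share of genes at least 2-fold higher was 10.3% in contralateral veins, 3.77% in early AVFs and 2.57% in late AVFs, and 3.42%, 1.16% and 3.51% were at least 2-fold lower. The 41 leading genes are ranked by the smallest of their 3 log2 ratios, and the first 20 are *Bmp3*, *Pla1a*, *Tek*, *Akr1c18*, *Sema3c*, *Cd55*, *Dpp4*, *Pcsk6*, *Lvrn*, *Sbsn*, *Adamts5*, *Efemp1*, *Igfbp5*, *Cadm3*, *Zfp385a*, *Ptgs1*, *Scara5*, *Npr1*, *Cxcl13* and *Ugdh*.

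*Bmp3*, an unusual bone morphogenetic protein that dampens BMP signaling, stood at 78.6, 37.9 and 53.6 CPM against 2.05, 3.38 and 7.98 CPM in the other fibroblasts of the vein, early and late libraries. The early level of *Bmp3* rested on 25 UMIs in 6 cells. *Sema3c*, a secreted semaphorin, stood at 1158, 182 and 387 CPM against 146, 40.1 and 86.3 CPM. *Tek*, the angiopoietin receptor usually read as endothelial, stood at 180, 33.3 and 56.7 CPM against 12.8, 5.03 and 10.7 CPM. Of the other 11 endothelial markers, *Pecam1* stood at 4.99, 7.58 and 4.59 CPM and *Cdh5* at 3.74, 1.52 and 0.601 CPM in Pi16 fibroblasts. *Tek* was therefore present without a matching level of the genes that define endothelium.

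*Pla1a*, a phospholipase acting on phosphatidylserine, stood at 472, 86.4 and 307 CPM against 16.4, 14.1 and 44.1 CPM. *Adamts5*, a protease that cleaves versican and aggrecan, stood at 1008, 784 and 1008 CPM against 246, 230 and 334 CPM. *Ugdh*, which makes the UDP-glucuronate needed for hyaluronan, stood at 928, 561 and 1151 CPM against 143, 225 and 411 CPM. In early AVFs the 7 cells with 30 or more *Pi16* UMIs had 1292 CPM of *Ugdh*. Early cells with 3, 4 to 9 and 10 to 29 *Pi16* UMIs had 222, 232 and 247 CPM, near the other fibroblasts. The genes *Ugdh*, *Uap1* and *Gfpt2*, which feed hyaluronan synthesis, were among the 41, as was *Ptx3*, a pentraxin that is built into hyaluronan-rich matrix. *Cd55*, which protects cells from complement, stood at 621, 252 and 374 CPM against 60.2, 56.6 and 90.9 CPM. *Efemp1*, a fibulin of microfibrils, stood at 1432, 508 and 670 CPM against 137, 178 and 185 CPM.

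**Figure D2:**
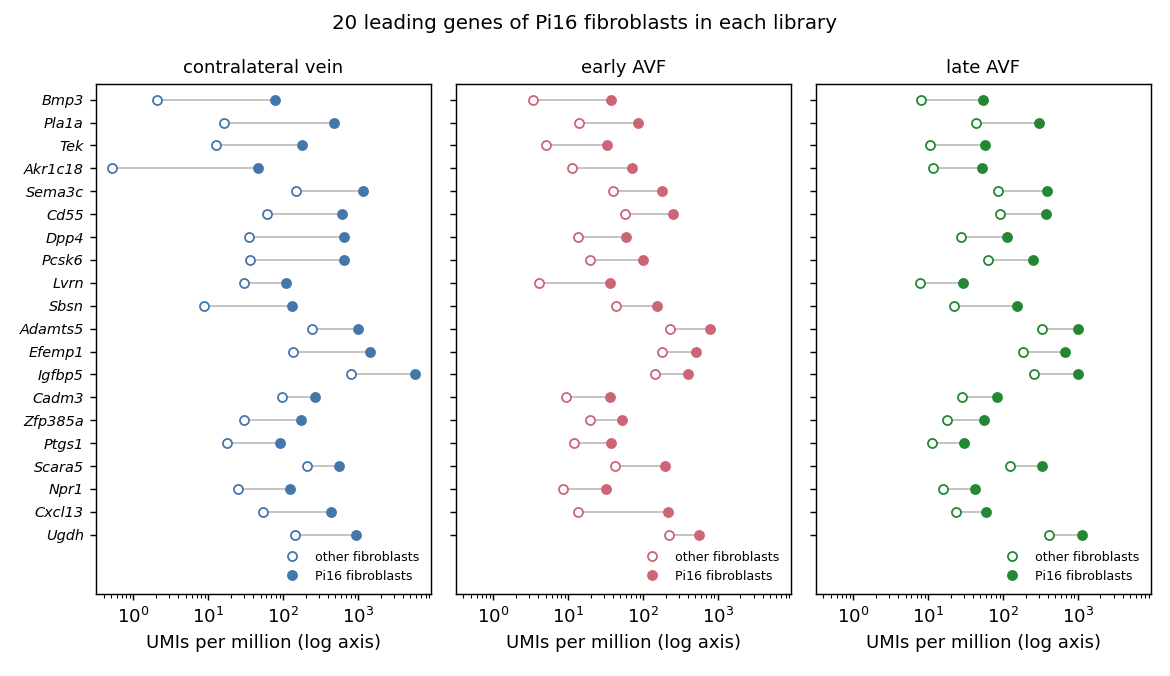
Level of the first 20 leading genes, in CPM on a log axis, in Pi16 fibroblasts (filled points) and the other fibroblasts of the same library (open points), with 1 panel for each library. Each filled point lies at least 2-fold to the right of its open point, since that chose the genes, and *Igfbp5* in the contralateral vein has the highest level, 5852 CPM.

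Leading genes were more often lower than higher in AVF cells than in vein cells. The rule did not act alike in the libraries. Its 3 *Pi16* UMIs were asked of vein cells with a median of 9449 UMIs and of early AVF cells with 31721. Of fibroblasts with that *Pi16* count, 422 of 500 in veins and 28 of 113 in early AVFs exceeded the *Inmt* group limit. The part of the rule in the counts and medians of leading genes was not tested. Against contralateral veins, 24 of the 41 were at least 2-fold lower in early AVF cells with a counting interval that excluded equality, and 1, *Ptx3*, was higher. In late AVF cells 16 were lower and 1, again *Ptx3*, was higher. Late over early AVF cells, 9 were higher and 3 lower. The background was large: of 5871 genes compared between early AVF and vein cells, 20.3% were lower and 9.76% higher, and of 12181 compared between late AVF and vein cells, 15.2% were lower and 5.39% higher. Of 12176 compared between late and early AVF cells, 2.92% were higher and 4.36% lower. The median log2 ratio of the leading genes was −1.23 for early over vein, −0.73 for late over vein and 0.44 for late over early, beside −0.27, −0.37 and −0.14 over all genes compared.

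Scaling by the median ratio between libraries instead of the total moved those medians of all genes to −0.14, 0.05 and 0.02. It also moved the share of calls that were higher, from 32.4% to 42.1% for early over vein, from 26.2% to 59.1% for late over vein and from 40.1% to 62.0% for late over early. Counts of genes higher and lower therefore depended on the scaling.

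*Igfbp5*, which binds insulin-like growth factors, had the highest level of the leading genes in contralateral vein cells, 5852 CPM, and stood at 397 CPM in early and 1003 CPM in late AVF cells. The log2 ratio was −3.88 for early over vein (95% counting interval −4.07 to −3.70) and −2.54 for late over vein (−2.59 to −2.50). *Dpp4* had log2 ratios of −3.46 (−3.97 to −2.99) and −2.52 (−2.65 to −2.37). *Ptx3* went the other way, from 313 CPM in vein cells to 1419 CPM in early and 2612 CPM in late AVF cells. *Adamts5*, *Akr1c18* and *Sbsn* were among those with less than a 2-fold difference in each comparison: *Sbsn*, which encodes suprabasin, stood at 131, 153 and 154 CPM.

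A list of 24 markers of Pi16 fibroblasts from other tissues was chosen with these data known, and it includes *Pi16*, which the rule used. In early over vein cells 15 of 24 were at least 2-fold lower and 0 higher (median log2 ratio −1.39), and in late over vein cells 10 were lower and 0 higher (median −0.85). Of all genes compared, 20.3% and 15.2% were lower. The marker counts depended on how *Pi16* was required. With *Pi16* at least 0.05% of UMIs, 10 were lower in early cells (median −0.93) and 8 in late cells (median −0.72), with 0 higher. The limits on the 3 gene groups mattered too: without them, 7 were lower and 1 higher in early cells (median −0.81), and 3 were lower and 0 higher in late cells (median −0.11). Median-ratio scaling gave 6 lower in late cells (median −0.42). In late over early cells 5 were higher and 1 lower (median 0.54). The other fibroblasts of the same libraries had 3 higher and 10 lower for early over vein, and 3 higher and 2 lower for late over vein. *Pcolce2*, a procollagen processing enhancer, was lower in both, at 865, 115 and 267 CPM in Pi16 fibroblasts. *Efhd1*, a mitochondrial calcium-binding protein, had 247, 13.6 and 64.5 CPM. *Limch1*, an actomyosin regulator, had 122, 10.6 and 35.8 CPM. *Ly6a*, *Fbn1* and *Mfap5* differed by less than 2-fold across the libraries: *Fbn1*, the fibrillin of microfibrils, stood at 1356, 1714 and 1646 CPM, and *Mfap5*, its partner, at 1224, 1767 and 1292 CPM.

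Levels of these markers varied with the *Pi16* count among the cells themselves. In late AVFs, 27 cells had 3 *Pi16* UMIs, 89 had 4 to 9, 197 had 10 to 29 and 345 had 30 or more. *Dpp4* stood at 55.9, 63.9, 84.0 and 143 CPM over these 4 ranges and *Sema3c* at 89.5, 202, 227 and 526.4 CPM. Cells of late AVFs with many *Pi16* UMIs thus had more of both. The 24 cells just outside the rule, with 2 *Pi16* UMIs and every other part met, had 19.6 CPM of *Dpp4* and 58.7 CPM of *Sema3c*.

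In early AVFs the *Pi16* ranges held 1, 5, 9 and 7 cells, with *Dpp4* at 0, 0, 16.0 and 170 CPM and *Sema3c* at 63.4, 17.2, 25.7 and 539 CPM. The 7 cells with 30 or more *Pi16* UMIs carried most of both transcripts, and the other 15 had little of either. In contralateral veins the ranges held 4, 13, 25 and 29 cells, and *Dpp4* stood at 1021, 527, 556 and 714 CPM, highest in the 4 cells with 3 *Pi16* UMIs. *Sema3c* rose with the *Pi16* count there too, at 454, 653, 893 and 1437 CPM. Among cells with 30 or more *Pi16* UMIs, 7 of 23 markers compared were lower in early AVFs than in veins and 1 was higher. In late AVFs 8 of 24 were lower with 0 higher. The median cell of this range held 13502 UMIs in veins, 33014 in early and 28762 in late AVFs. A count of 30 was thus a higher *Pi16* level in veins, and these cells were not matched for it. Just outside the rule lay 5 cells of contralateral veins (*Dpp4* at 186 CPM) and 2 of early AVFs (*Dpp4* at 0).

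Cells with a UMI were also counted at equal depth. After thinning to 4794 UMIs a *Dpp4* UMI was found in 96.8% of 63 vein cells, 22.7% of 22 early cells and 36.7% of 649 late cells, beside 93.0%, 31.8% and 67.02% before thinning. *Sema3c* was found in 95.2%, 27.3% and 63.5% of thinned cells. *Clec3b* was found in 100%, 95.5% and 99.1%. *Dpp4* and *Sema3c* were therefore found in fewer AVF cells, while *Clec3b* was found in nearly all cells of each library. A share of cells with a UMI falls with the mean level, so these shares do not measure spread between cells.

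**Figure D3:**
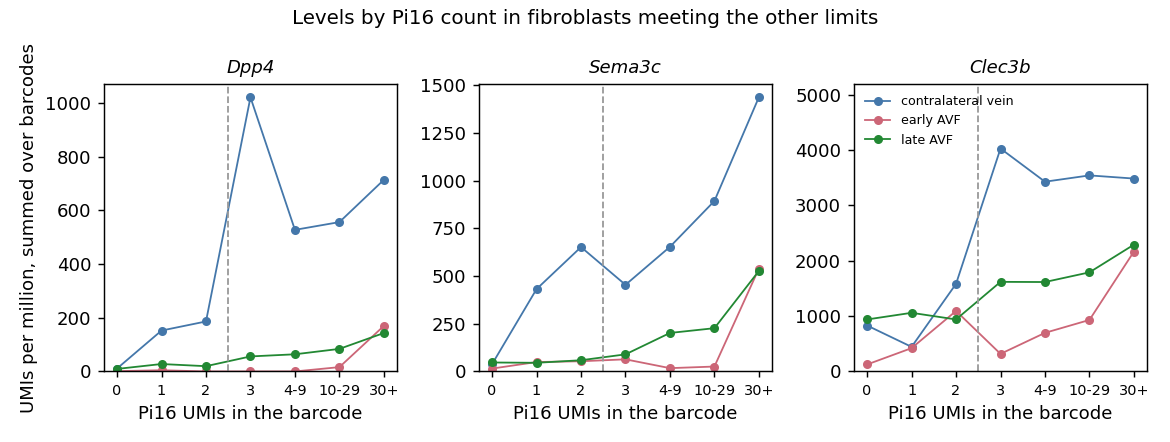
Level of *Dpp4*, *Sema3c* and *Clec3b*, in CPM summed over barcodes, by the number of *Pi16* UMIs in the barcode, for fibroblasts that met the other limits in the 3 libraries. The dashed line marks the rule's limit of 3 *Pi16* UMIs. In early AVFs *Dpp4* and *Sema3c* are high only in the 7 cells with 30 or more *Pi16* UMIs (170 and 539 CPM).

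Gene lists were then compared between libraries. A gene entered a comparison with 20 UMIs in either library, so a gene near 0 in vein cells entered only through an AVF library in which it was high, and the late library, the deepest, let in the most. Counts and medians of such lists are descriptions of the genes that entered. They are to be set beside the shares over all genes compared. For early over vein cells these were 9.76% higher and 20.3% lower. For late over vein cells they were 5.39% and 15.2%, and for late over early cells 2.92% and 4.36%. Of 14 pan-fibroblast genes, 2 were higher and 1 lower in early over vein cells (median log2 ratio 0.60), and 0 were higher and 2 lower in late over vein cells (median 0.28). *Gsn*, the actin-severing protein gelsolin, stood at 13609, 1387 and 5975 CPM and was also lower in the other fibroblasts, at 17185, 748 and 6255 CPM. *Pdgfra*, the receptor that marks fibroblasts, stood at 673, 400 and 298 CPM. *Lum*, a keratan sulfate proteoglycan, stood at 781, 2104 and 1322 CPM.

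Hyaluronan genes had their highest sum in late AVF cells, at 4058, 3621 and 8858 CPM over 14 genes, and the sum in the other fibroblasts was also highest there, at 1450, 2631 and 4966 CPM. Of 10 compared between early AVF and vein cells, 1 was higher and 2 lower (median −0.04), counts near the shares over all genes. Of 13 compared between late AVF and vein cells, 3 were higher and 0 lower (median 0.23). In late over early cells 5 of 13 were higher and 0 lower (median 0.62). *Has1*, a hyaluronan synthase, stood at 222, 218 and 1211 CPM, a log2 ratio of 2.45 for late over vein (2.23 to 2.67). *Tnfaip6*, which links proteins to hyaluronan, stood at 1122, 1085 and 4004 CPM, with 2128 CPM in the other fibroblasts of late AVFs. *Cd44*, the hyaluronan receptor, stood at 63.6, 377 and 579 CPM. *Gfpt2*, which feeds the hexosamine pathway, was lower in early cells and within 2-fold of veins in late cells, at 724, 243 and 608 CPM.

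Of 18 elastic fiber and microfibril genes, 14 of which had 20 UMIs in vein cells, 10 were higher and 3 lower in early over vein cells (median 1.28), 7 higher and 2 lower in late over vein cells (median 0.33), and 1 higher and 6 lower in late over early cells. *Fbn2*, a fibrillin of growing tissue, had 1 UMI in vein cells and 120 CPM in early AVF cells, a log2 ratio of 6.58 (4.06 to 11.91). *Lox*, which crosslinks collagen and elastin, stood at 9.98, 474 and 197 CPM. *Mfap4*, a microfibril-associated protein, stood at 21.2, 577 and 287 CPM. Other fibroblasts of contralateral veins already had 191 CPM of *Lox* and 572 CPM of *Mfap4*.

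Of 16 collagen assembly genes, which overlap the elastic list in *Lox* and *Loxl1*, 8 were higher and 1 lower in early over vein cells (median 0.86), and 1 was higher and 1 lower in late over vein cells (median 0.40). *Serpinh1*, the collagen chaperone, stood at 1027, 1681 and 1435 CPM. Of the small leucine-rich proteoglycans, 2 of 8 were higher and 2 lower in early cells, and 2 of 9 were higher and 2 lower in late cells. *Bgn*, encoding biglycan, stood at 145, 3859 and 1859 CPM, whereas *Ogn*, encoding osteoglycin, stood at 1582, 367 and 590 CPM.

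Of 19 fibroblast activation genes, 4 of which the rule capped (*Postn*, *Tnc*, *Cthrc1* and *Thbs4*), only 4 had 20 UMIs in vein cells. The 11 of 14 called higher in early over vein cells and the 15 of 19 in late over vein cells, with 0 lower in either, were thus largely fixed by the minimum. In late over early cells 1 was higher and 8 lower. *Timp1*, an inhibitor of metalloproteinases, stood at 7.49, 603 and 262 CPM. *Thbs1*, which activates latent TGF-beta, stood at 4.99, 402 and 354 CPM. *Runx1*, a transcription factor, stood at 8.73, 208 and 226 CPM. The other fibroblasts had 316 and 247 CPM of *Runx1* in early and late AVFs, so cells outside the rule had it as well. *Sparc*, a collagen-binding glycoprotein, stood at 3195, 16514 and 7231 CPM.

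Of the metalloproteinases and TIMPs, 4 of 11 were higher and 2 lower in early cells, and 5 of 12 were higher and 1 lower in late cells. *Timp3*, which binds to matrix, stood at 1180, 241 and 393 CPM, opposite to *Timp1*. *Mmp3*, stromelysin, stood at 198, 447 and 507 CPM.

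Of 23 chemokine and cytokine genes, 14 had 20 UMIs in vein cells, so the others entered only through an AVF library. In early over vein cells 12 of 17 were higher and 2 lower, and in late over vein cells 14 of 23 were higher and 2 lower. In late over early cells 6 were higher and 1 lower. *Ccl2*, the main monocyte chemoattractant, stood at 550, 2519 and 4826 CPM. *Cxcl1*, a neutrophil chemoattractant, stood at 497, 2271 and 5918 CPM, with 392, 3190 and 4132 CPM in the other fibroblasts. *Cxcl2* stood at 38.7, 837 and 2203 CPM and *Ccl7* at 178, 2277 and 2787 CPM. *Cxcl12*, a ligand for leukocyte and progenitor homing, was highest in early cells, at 266, 1711 and 901 CPM.

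Of 9 complement genes compared, 4 were higher and 1 lower in early over vein cells (median 0.93), and of 11 compared, 5 were higher and 0 lower in late over vein cells (median 1.01). In the bulk libraries of whole vessels, described below, 10 of the 12 complement genes fell and 0 rose in early AVFs (edgeR, median log2 fold change −2.24). In late AVFs 2 fell and 0 rose (median −0.58), so both bulk medians had the opposite direction. Of all genes tested in bulk, 6.45% fell in early and 2.85% in late AVFs. Bulk and single-cell libraries of the same name were from different days. *C3*, the central complement protein, stood at 4575, 7281 and 7026 CPM in Pi16 fibroblasts and 2886, 2091 and 4160 CPM in the other fibroblasts. *C4b* stood at 190, 775 and 1248 CPM. *Cfb*, a protease of the alternative pathway, stood at 129, 1695 and 723 CPM. Of the prostaglandin genes, 1 of 5 was higher and 2 lower in early cells, and 1 of 6 was higher and 1 lower in late cells. *Ptgs2*, the inducible cyclooxygenase, stood at 201, 349 and 874 CPM and *Ptgs1*, the constitutive one, at 89.8, 37.9 and 30.5 CPM.

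Stress genes were higher in late AVF cells, and all single-cell libraries had been digested with enzymes at 37°C. Of 20 immediate early and heat shock genes, 6 were higher and 0 lower in early over vein cells (median 0.60), and 12 were higher and 0 lower in late over vein cells (median 1.19). *Fos* stood at 1479, 2816 and 5200 CPM, beside 2409, 2669 and 4986 CPM in the other fibroblasts. *Hspb1*, a small heat shock protein, stood at 974, 5423 and 5623 CPM. In bulk vessels, from different days, 1 of the same 20 genes rose and 3 fell in early AVFs (edgeR, median log2 fold change −0.79). In late AVFs 0 rose and 2 fell (median −0.23). Of all genes tested in bulk, 6.17% rose and 6.45% fell in early AVFs, and 2.49% and 2.85% in late AVFs. The part of the digestion in the single-cell levels was not tested. Of the oxidative stress and metal genes, 5 of 12 were higher and 1 lower in early cells and 8 of 14 were higher and 1 lower in late cells. *Hmox1*, heme oxygenase, stood at 114, 687 and 1173 CPM, and *Txnip*, an inhibitor of thioredoxin, at 589, 97.0 and 191 CPM. Of the glycolysis genes, 3 of 9 were higher in early cells and 3 of 10 in late cells, with 0 lower in either, and *Hk2*, hexokinase, stood at 29.9, 111 and 403 CPM.

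Growth factor genes moved both ways. Of 24 compared, 8 were higher and 9 lower in early over vein cells (median −0.19), and of 28 compared, 7 were higher and 5 lower in late over vein cells (median 0.01). *Igf1* stood at 192, 1257 and 544 CPM, *Igfbp7* at 147, 1726 and 1227 CPM and *Igfbp6* at 1850, 537 and 764 CPM. *Gas6*, a ligand of the Axl receptor, stood at 66.1, 681 and 471 CPM, where the other fibroblasts had 2614, 494 and 1098 CPM.

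Of the transcription factors, 4 of 21 were higher and 5 lower in early cells, and 9 of 25 were higher and 2 lower in late cells. *Klf4*, a flow- and stress-responsive factor, stood at 965, 803 and 2117 CPM, and *Ebf1*, a factor of mesenchymal precursors, at 1284, 470 and 640 CPM. Of the cell division genes, 3 of 5 were higher in early cells and 0 of 9 were higher or lower in late cells. *Ccnb2*, a mitotic cyclin, stood at 0, 37.9 and 1.31 CPM in the 3 libraries, from 0, 25 and 24 UMIs. *Mki67*, a marker of cycling cells, stood at 2.495, 16.7 and 2.73 CPM, from 2, 11 and 50 UMIs. Of the Inmt and C7 list, 4 of which the rule capped, 4 of 8 were higher and 2 lower in early cells, and 4 of 10 were higher and 2 lower in late cells.

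**Figure D4:**
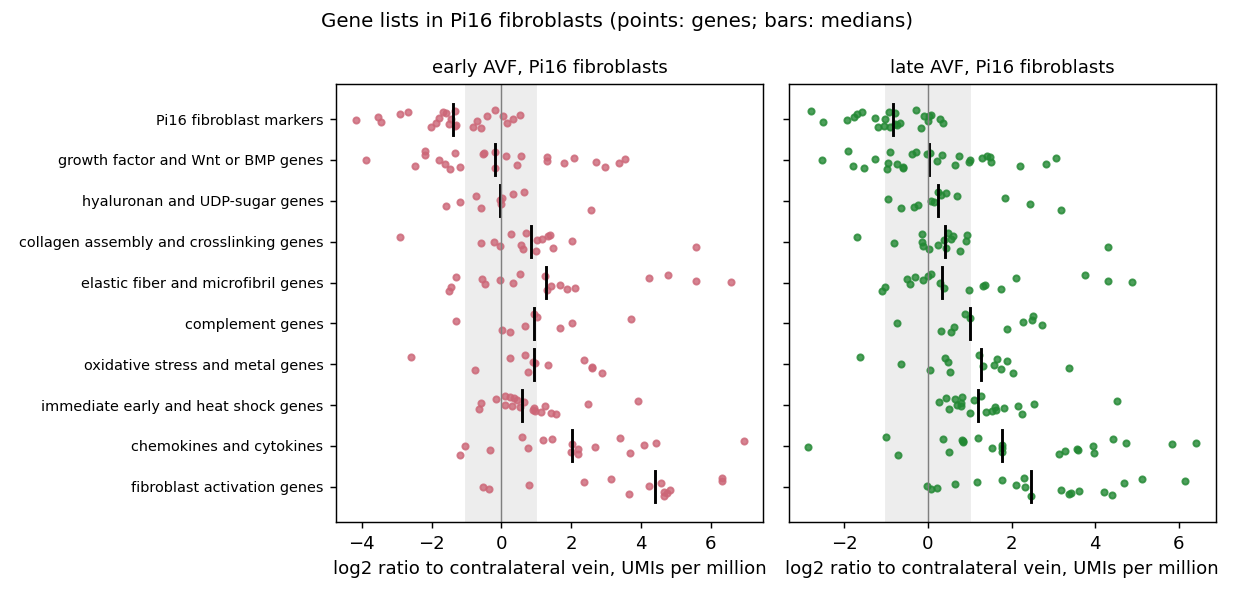
Log2 ratio of CPM in Pi16 fibroblasts of early AVFs (left) and late AVFs (right) over those of contralateral veins for the genes of 10 lists, with a point for each gene compared, a bar at the median and a grey band for less than 2-fold. A gene near 0 in veins is drawn only where it was high in the AVF library, and the Pi16 markers, all 24 of which had 20 UMIs in veins, have the lowest medians (−1.39 and −0.85).

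Transcripts of other cell types were low in these cells and differed between libraries. Summed over 12 macrophage markers, which include *Lyz2*, *C1qa* and *C1qb* capped by the rule, the level was 74.9 CPM in contralateral vein cells, 350 in early and 216 in late AVF cells. In vein cells 1 of the 12 had 20 UMIs. The genes called higher, 3 of 3 compared in early and 5 of 10 in late cells, thus entered mostly through the AVF libraries. The sum over 7 neutrophil markers was 6.24, 53.0 and 32.6 CPM, with 0 compared in early and 2 of 3 higher in late cells. The sum over 8 T and B cell markers was 9.98, 1.52 and 9.24 CPM, with 0 of 4 higher or lower in late cells. The part of such RNA in the differences between libraries was not tested.

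Of the smooth muscle and pericyte markers, capped by the rule, 1 of 2 was higher and 1 lower in early cells, and 3 of 10 were higher and 0 lower in late cells. Of the endothelial markers, *Tek* was the 1 gene compared in early cells and the 1 lower of 5 in late cells. Of the Schwann cell markers, 1 of 1 was lower in early and 2 of 2 in late cells, and the defining marker *Sox10* had 0, 0 and 1 UMIs. Of the mesothelial markers, 1 of 2 was higher and 1 lower in early cells and 1 of 2 was lower in late cells: *Wt1* stood at 3.74, 37.9 and 9.73 CPM, whereas *Upk3b* stood at 0, 0 and 0.219 CPM. Of the adipocyte markers, 1 of 2 was lower in both, with *Adipoq* at 2.495, 0 and 0.0546 CPM.

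Hemoglobin RNA was high in the vein library. The 5 erythroid genes summed to 10066 CPM in Pi16 fibroblasts of contralateral veins and 12205 CPM in the other vein fibroblasts, against 89.4 CPM in early and 2.46 CPM in late AVF cells, and 5 of 5 were lower in both. Within the vein library the level was thus alike in Pi16 fibroblasts and the other fibroblasts, and its part in the differences between libraries was not tested.

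Genes with the highest and lowest ratios were also taken across all genes. *Saa3*, serum amyloid A of connective tissue, which has close paralogs, had 0 UMIs in vein cells and 6411 CPM in early AVF cells, at least 10.74 log2 units higher against a floor of 3 counts. *Hp*, haptoglobin, had 1 UMI in vein cells and 2017 CPM in early cells (log2 ratio 10.66, 8.18 to 15.96). *Mgp*, matrix Gla protein and an inhibitor of calcification, stood at 56.1 and 2865 CPM (5.67, 5.25 to 6.13). These 3 genes were higher in the other early fibroblasts too, with log2 ratios of 12.12 for *Saa3*, 8.80 for *Hp* and 2.00 for *Mgp*. The 15 highest ratios also included *Cxcl5*, *Bmper*, a BMP-binding protein, *Lcn2*, *Tmem176a*, *Tmem176b*, *Chl1*, *Prg4*, lubricin, *Fbn2*, *Timp1*, *Thbs1* and *Lox*. The 15 lowest ratios included *Smpd3*, neutral sphingomyelinase, at 639 and 15.2 CPM (−5.40, −6.47 to −4.51), *Itga11*, a collagen-binding integrin, at 172 and 6.06 CPM, and *Wnt10b*, a Wnt ligand, at 83.6 and 3.03 CPM. They also included *Prkg2*, *Arl4d*, *Ackr2*, *Aif1l*, *Hecw2*, *Chst1*, *Efhd1*, *Ccdc3*, *Vit*, *Igfbp5*, *Arhgap20* and *Megf9*. *Itga11* was not lower in the other early fibroblasts, where its log2 ratio was 0.01, while *Smpd3* had −5.74 and *Wnt10b* −0.72 there.

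Late over vein cells, the highest ratios were those of *Hp* (9.81, 7.33 to 15.11) and *Saa3* (at least 8.06), and the 15 highest also included *Cxcl5*, *Thbs1*, *Bmper*, *Cpxm2*, *Cxcl2*, *Rgs16*, *Prg4*, *Lcn2*, *Tgm2*, *Timp1*, *Ccn5* and *Fbn2*. *Tgm2*, transglutaminase, had 1 UMI in vein cells (5.16, 2.68 to 10.47), its log2 ratio was −0.0798 without the limits on the 3 gene groups, and the other fibroblasts had −0.52. *Cxcl2* had a log2 ratio of 5.83 (5.33 to 6.39). In the other fibroblasts, late over vein, the log2 ratios were 7.27 for *Hp*, 10.06 for *Saa3* and 4.56 for *Cxcl2*. The lowest ratios included circadian clock genes, *Per3* at 88.6 and 6.45 CPM (−3.78, −4.22 to −3.33) and *Hlf* at 61.1 and 5.46 CPM (−3.48, −3.99 to −2.96). *Smpd3* stood at 49.3 CPM (−3.70) and *Adam33*, a membrane metalloprotease, at 22.0 CPM (−3.06). *Chst1*, *Itga2*, *Rorb*, *Prkg2*, *Adra1b*, *Irf4*, *Krt25*, *Ccdc3*, *Kcnn3*, *Rab38* and *Lgi1* were the others. The hour at which the pools were collected is not given, and its part in the clock genes was not tested.

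Between late and early cells, 5 genes were picked after their values were seen. *Il1rl1*, the interleukin-33 receptor, had 1225 UMIs in late and 1 UMI in early cells (5.46, 2.98 to 10.77). It was found in 13.5% of late cells, and the 66 richest cells held 98.1% of its UMIs. In the other fibroblasts its log2 ratio was −0.92, the opposite direction. *Csf2*, encoding GM-CSF, had 663 and 1 UMIs (4.58, 2.10 to 9.88), and *Cxcl9*, an interferon-induced chemokine, had 1845 and 6 UMIs (3.47, 2.35 to 4.92). *Dlk1*, an imprinted Notch-family ligand, had the lowest ratio of late over early cells among genes with at least 50 UMIs, at 3.83 and 84.9 CPM (−4.47, −5.00 to −3.94). *H19*, an imprinted noncoding RNA, stood at 42.2 and 400.1 CPM (−3.24, −3.45 to −3.04). It was found in 14.3% of late cells, with 96.4% of its UMIs in the 66 richest. The other fibroblasts had log2 ratios of 0.35 for *Csf2*, 0.55 for *Cxcl9*, −4.21 for *Dlk1* and −3.94 for *H19*. The intervals cover counting error only, so for transcripts held by few cells they are too narrow, with 22 early cells.

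Several of these transcripts sat in few cells of late AVFs. Of 3229 genes ranked by their variation beyond counting error, *Cxcl9* was first: 15.8% of the 658 cells had a UMI, and the 66 cells richest in it held 97.9% of its UMIs. *Csf2* and *Csf3* were found in 6.84% and 6.38% of cells. The 66 richest cells held 95.7% of the UMIs of *Saa3*, found in 42.1% of cells, and 96.2% of those of *Cxcl5*, found in 26.3%. Among the leading genes, *Cxcl13* was found in 12.6% and *Akr1c18* in 17.9% of cells, with 98.4% and 91.4% of their UMIs in the 66 richest. *Igfbp5*, also a leading gene, was found in 69.3% of cells, with 62.3% of its UMIs in the 66 richest. *Mgp*, by contrast, was found in 98.8% of cells, with 69.6% of its UMIs in the 66 richest. Mean levels of *Saa3* and *Cxcl9* were therefore set by a small set of Pi16 fibroblasts.

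Bulk libraries, which the rule did not use, allowed tests across libraries, though the labels do not tie these to mice. In whole vessels a lower level can come from fewer Pi16 fibroblasts or from less RNA per cell, and these cannot be told apart. *Pi16* stood at 126 CPM in the lowest, 190 in the median and 392 in the highest of 7 contralateral veins. The 8 early AVFs ran from 0.782 to 154 CPM with a median of 43.0. The 5 mid AVFs stood at 144, 276, 237, 183 and 222 CPM, and the 5 late AVFs at 346, 466.4, 274, 120 and 192 CPM.

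Early AVFs were low in *Pi16* in all but 1 library and overlapped the veins through it, whereas mid AVFs lay within the range of the veins and late AVFs reached from just below it to above it. The log2 fold change in edgeR was −1.997 ± 0.62 (SE) for early AVFs against veins (adjusted p = 0.0197), −0.03 ± 0.68 for mid (adjusted p = 0.985) and 0.36 ± 0.68 for late AVFs (adjusted p = 0.797). Late against early AVFs it was 2.36 ± 0.66 (adjusted p = 0.0265). None met the DEG criteria of adjusted p below 0.01 and at least 2-fold. Without early AVF replicate 10, which had the highest *Pi16* of the early group, the fold changes for early against vein and late against early met them, at −2.497 and 2.81.

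Bulk vessels also changed in composition, so *Pi16* was set beside the other fibroblast genes. Summed over the 14 pan-fibroblast genes, the level was 12709 to 24426 CPM in veins, 4838 to 14894 CPM in early AVFs, 13412 to 17633 CPM at the mid time and 13430 to 22045 CPM at the late time. *Pi16* as a percentage of this sum had medians of 0.989% in veins (0.683 to 1.61%), 0.396% in early (0.00931 to 1.04%), 1.39% in mid (1.04 to 1.65%) and 1.59% in late AVFs (0.825 to 2.12%). Macrophage markers summed to 2343 to 8768 CPM in veins and 13708 to 43457 CPM in early AVFs, with 9 of 12 rising and 0 falling. Neutrophil markers summed to 4.66 to 177 CPM and 251 to 4492 CPM. Of the 14 pan-fibroblast genes 3 fell and 2 rose in early AVFs (median −0.23), so the lower sum was not shared by the whole list. Of all genes tested, 6.45% fell and 6.17% rose in early AVFs. The part of these leukocyte transcripts in the results below was not tested.

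Of the 41 leading genes, 40 had enough reads to be tested in bulk, all but *Sbsn*. In early AVFs 9 of 40 fell and 1 rose, while 6.45% of all 12673 genes tested fell and 6.17% rose. The median log2 fold change of the 40 was −0.72, with −0.01 over all genes tested, and 28 were negative. In mid AVFs 3 fell and 0 rose (3.31% and 2.74% of all genes), and in late AVFs 3 fell and 0 rose (2.85% and 2.49%), with medians of −0.08 and 0.00. Late against early AVFs, 1 rose and 0 fell (0.726% and 2.28% of all genes), with a median of 0.64. The share of leading genes that fell was thus 22.5% in early AVFs, near the 21.4% of the pan-fibroblast genes. Of the fibroblast activation genes 0% fell there, and of the *Inmt* and *C7* list 80%. The fall was therefore not particular to the leading genes. The 3 leading genes that fell in mid and late AVFs were 7.5%. Without late replicate 16, 19 or 24 only 1 of 40 fell in late AVFs, so nothing is read from those shares.

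*Igfbp5* stood at 420 to 1070 CPM in veins (median 823), 61.7 to 319 in early AVFs (median 116), 446, 332, 320, 282 and 249 in mid AVFs and 294, 321, 373, 317 and 321 in late AVFs. Every early and late AVF lay below every vein, which 2.34% and 4.25% of all genes also did. The fold change was −2.51 ± 0.28 in early AVFs (edgeR adjusted p = 2.87e-07), −1.30 ± 0.32 at the mid time (adjusted p = 0.00741) and −1.30 ± 0.32 in late AVFs (adjusted p = 0.00803). The mid and late calls were lost in 14 and 18 of 25 fits that each left out 1 library.

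*Ptgs1* stood at 100.1 to 297 CPM in veins (median 144) and 28.2 to 103 in early AVFs (median 44.0), and all 10 mid and late AVFs lay between 28.7 and 51.6 CPM. It fell by 1.84 on the log2 scale in early AVFs, 2.04 at the mid time and 2.03 at the late time (adjusted p = 1.79e-05, 0.000119 and 0.000159). All mid and late AVFs lay below all veins, as did 4.69% and 4.25% of all genes. *Ptgs1* thus had no return toward the vein level, and it was also lower in Pi16 fibroblasts of late AVFs than in those of veins.

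*Tek* stood at 37.1 to 859 CPM in veins (median 146) and 23.7 to 68.1 in early AVFs (median 43.7), and fell by 2.49 ± 0.42 (adjusted p = 9.64e-05). Without vein replicate 28, its highest vein, the fold change was −1.74 and still met the criteria. *Tek* is also an endothelial gene, and 9 of 12 endothelial markers fell in early AVFs, beside 6.45% of all genes. *Pla1a* stood at 20.4 to 131 CPM in veins (median 40.9) and 4.94 to 19.2 in early AVFs (median 12.9), all below the veins, and fell by 2.16 ± 0.44 (adjusted p = 0.000718). *Scara5*, a ferritin receptor, stood at 75.1 to 244 CPM in veins (median 128) and 0 to 52.7 in early AVFs (median 28.0), all below, and fell by 2.46 ± 0.63 (adjusted p = 0.00507), a call lost without vein replicate 34 or early replicate 3, 5 or 7. In late AVFs *Pla1a* stood at 35.7, 51.7, 55.7, 38.3 and 20.8 CPM and *Scara5* at 246, 197, 202, 135 and 125 CPM, levels that overlapped the veins.

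*Lvrn*, an aminopeptidase, fell by 3.31 ± 0.70 in early AVFs (adjusted p = 0.00102), from 31.0 to 123 CPM in veins (median 39.6) to 0 to 11.2 CPM (median 4.28). *Efemp1* fell by 1.69 ± 0.36 (adjusted p = 0.001), from 248 to 738 CPM (median 399.7) to 18.0 to 265 CPM (median 131). *Cd55* fell by 1.64 ± 0.37 (adjusted p = 0.00165), from 56.3 to 415 CPM (median 162) to 21.8 to 129 CPM (median 64.9). *Npr1*, the receptor of atrial natriuretic peptide, fell by 1.44 ± 0.37 (adjusted p = 0.00563), from 8.34 to 52.7 CPM (median 32.9) to 6.57 to 19.3 CPM (median 10.1), a call lost in 7 of 25 fits that left out 1 library. *Lvrn* did not overlap between the groups, while *Efemp1*, *Cd55* and *Npr1* did.

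*Ptx3* was the leading gene that rose. It stood at 0 to 5.63 CPM in veins (median 2.83) and 9.81 to 139 in early AVFs (median 19.99), all above the veins, as were 4.47% of all genes. The fold change was 4.35 ± 0.84 (adjusted p = 0.000384) in early AVFs, and it was 3.05 ± 0.83 in mid (adjusted p = 0.0149) and 1.57 ± 0.80 in late AVFs (adjusted p = 0.229). Bulk *Ptx3* was thus highest in early AVFs, whereas Pi16 fibroblasts had their highest level in the late library, at later mean days than bulk. *Cxcl13*, the chemokine of B cells, stood at 32.7 to 346 CPM in veins (median 132), 3.99, 5.18, 3.51, 1.32 and 5.56 in mid and 2.84, 11.8, 2.57, 10.6 and 2.74 in late AVFs. It fell by 5.29 ± 1.10 in mid (adjusted p = 0.00165) and 4.64 ± 1.06 in late AVFs (adjusted p = 0.00454), where the late call was lost without late replicate 16, 19 or 24, with −2.76 ± 0.80 in early AVFs (adjusted p = 0.013), which met the criteria without vein replicate 27 or 28 or early replicate 6 or 7 (−3.59 without early replicate 7).

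**Figure D5:**
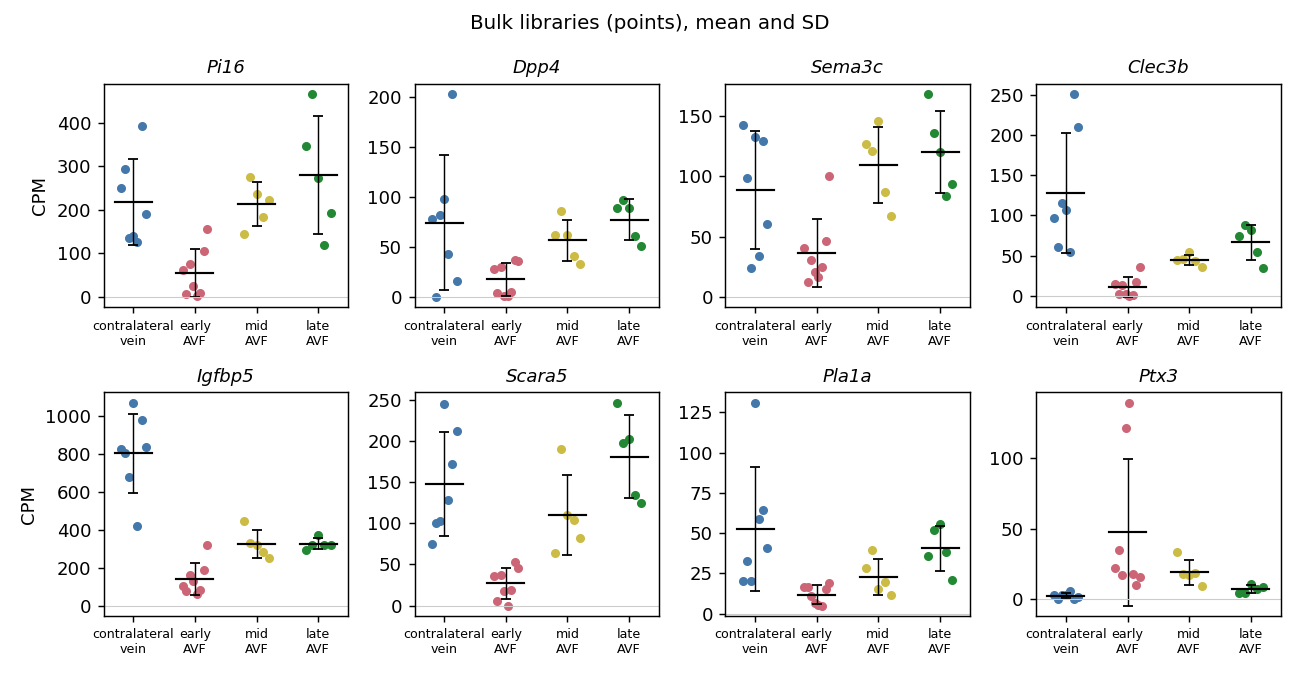
CPM of 8 genes in each of the 25 bulk libraries (points) by group, with the group mean and SD (bars). Early AVFs have the lowest mean of *Pi16*, *Dpp4*, *Sema3c*, *Clec3b*, *Igfbp5*, *Scara5* and *Pla1a*, and *Ptx3* is highest in early AVFs, where it reaches 139 CPM.

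The 24 Pi16 markers were all tested in bulk. In early AVFs 5 fell and 0 rose (median −0.61), in mid AVFs 1 fell and 1 rose (median −0.20), and in late AVFs 1 fell and 0 rose (median −0.06). Late against early AVFs, 1 rose and 0 fell (median 0.81). Of all genes, 6.45% fell and 6.17% rose in early AVFs, 3.31% and 2.74% in mid and 2.85% and 2.49% in late AVFs. Late against early AVFs, 0.726% of all genes rose and 2.28% fell. The early falls were 20.8% of the list, near the 21.4% of the pan-fibroblast genes. A count of 1 gene was 4.17%, so nothing is read from counts of 1. *Clec3b* stood at 53.8 to 251 CPM in veins (median 106) and 0 to 36.1 in early AVFs (median 8.27), all below the veins, and fell by 3.54 ± 0.74 (adjusted p = 0.000987), with −4.17 without early replicate 10. Late AVFs stood at 74.3, 88.1, 81.2, 54.8 and 34.5 CPM, overlapping the veins (−0.94 ± 0.80, adjusted p = 0.51). *Dpt* stood at 746 to 1748 CPM in veins (median 922) and 45.8 to 733 in early AVFs (median 268), and fell by 1.83 ± 0.35 (adjusted p = 0.000364).

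*Pcolce2* was the marker that fell at each time, from 118 to 453 CPM in veins (median 309) to 21.0 to 79.6 in early AVFs (median 34.8), with all AVFs below all veins. The fold changes were −2.85 ± 0.31, −2.82 ± 0.37 and −1.77 ± 0.35 in early, mid and late AVFs (adjusted p = 1.43e-07, 7.04e-06 and 0.00128). *Cd55*, described above, and *Igfbp6*, which binds insulin-like growth factor 2, were the others that fell in early AVFs, *Igfbp6* without overlap (−1.44 ± 0.30, adjusted p = 0.000776). *Fbn1* rose in mid AVFs, with 1325, 1302, 1352, 1154 and 930 CPM against 168 to 546 in veins (median 413), by 1.602 ± 0.35 (adjusted p = 0.00288), a call lost without mid replicate 13. All mid and late AVFs lay above all veins for *Fbn1*, as did 7.32% and 6.25% of all genes. *Col14a1*, a collagen that binds to fibrils, rose from early to late AVFs by 1.85 ± 0.44 (adjusted p = 0.00965), and *Antxr2*, an anthrax toxin receptor that binds collagen, by 1.06 ± 0.25 (adjusted p = 0.00943). Both had all late AVFs above all early AVFs, as did 7.16% of all genes, and 8.39% of all genes had all late AVFs below. The calls of *Col14a1* and *Antxr2* were lost in 19 and 16 of 25 fits that left out 1 library.

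*Dpp4* did not meet the criteria in any comparison. It stood at 0.373 to 203 CPM in veins (median 78.3), 1.375 to 36.7 in early AVFs (median 16.3), 33.2 to 85.6 in mid and 50.8 to 97.0 in late AVFs. The fold change was −2.06 ± 0.74 in early (adjusted p = 0.0445) and 0.06 ± 0.82 in late AVFs (adjusted p = 0.98). In Pi16 fibroblasts themselves *Dpp4* was lower in the late library than in the vein library, whereas the share of such cells was larger. *Sema3c* likewise had −1.28 ± 0.40 in early (adjusted p = 0.0227) and 0.44 ± 0.45 in late AVFs (adjusted p = 0.598).

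The sexes were mixed in the pools and unequal between the bulk groups. In a model with sex and its interaction with group, 0 of 57 interactions in the 19 genes named from bulk passed an adjusted p of 0.05.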

How the data were processed

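Single-cell libraries (1 pool per condition) and bulk libraries were analysed from the files the authors deposited. Per the file headers, single-cell UMI counts came from Cell Ranger 6.0.2, and the submitters' processing notes also name STAR and the builds mm10 and GRCm38, without saying which data each served. Bulk counts were deposited as raw read counts per gene for 25 libraries with totals of 20254173 to 67457501. The counter and its version were not given in the sources used here. Symbols came from the single-cell gene lists for 32210 bulk genes and from the reference for 19962. *Aldoa* and *Ccl19*, with more than 1 identifier, and *Ctgf*, not found under that symbol, were left out.

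Pi16 fibroblasts were selected from the 26438 barcodes by the rule stated above, and their UMI counts were summed per library and divided by the total (CPM). Barcodes were not treated as replicates. Ratios of CPM have exact conditional binomial 95% intervals, and a gene was called at 2-fold or more with an interval that excluded equality and at least 20 UMIs in 1 of the libraries compared. A level of 0 was set to a floor of 3 counts per library. Doublets were predicted with Scrublet (scanpy 1.11.5), which marked 0, 0.0421 and 2.06% of the 3 libraries and thus did not work in contralateral veins and early AVFs, and none were removed. Ranked genes left out mitochondrial, ribosomal, hemoglobin and predicted genes, and sex-linked genes of the mixed pools.

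Bulk counts were tested with edgeR 4.0.16 (R 4.3.3), quasi-likelihood, TMM, all 25 libraries in 1 fit of 4 groups, over 12673 of 56980 genes with a mean DESeq2 1.42.0 normalized count of at least 100, with Benjamini-Hochberg adjustment over all genes tested. A DEG had adjusted p below 0.01 and at least 2-fold change. The common dispersion was 0.710. The study assigned 25 mice to bulk sequencing, but the labels do not tie libraries to mice, so p-values measure the spread between these libraries. Counting by strand is not stated, and genes with close paralogs are uncertain. The test was also tried on simulated counts, drawn with the means and dispersions of the main fit.

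Members, gene lists (27) and tests were chosen with earlier results of these data known. Named genes were list members with the highest level or largest ratio, the 15 highest and 15 lowest ratios against veins with at least 50 UMIs, the first 20 leading genes, defining markers of other cell types and, in bulk, the 10 leading genes with the smallest early p and the genes called. *Dpp4* and *Sema3c* in bulk, and 5 genes compared between late and early AVF cells, were added after values were seen. One gene that met the rule for named genes is not reported here. Alternatives are given in the closing section.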

Additional observations from a re-analysis of the deposited data

Results flagged for a closer look

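In 76 groups of libraries tested for a library far from the rest of its group in the named bulk genes, 8 were flagged, and chance flags about 1 in 20 groups. Among contralateral veins, replicate 28 was highest for *Tek* (859 CPM, next 267) and for *Lvrn* (123 CPM, next 58.4), and replicate 34 was highest for *Pla1a* (131 CPM, next 64.3). Among early AVFs, replicate 5 was highest for *Ptgs1* (103 CPM, next 56.8) and replicate 7 for *Cxcl13* (91.1 CPM, next 21.7). In mid AVFs replicate 13 was highest for *Npr1* (17.3 CPM, next 13.3). In late AVFs replicate 17 was highest for *Col14a1* (1002 CPM, next 770) and replicate 24 lowest for *Igfbp6* (149 CPM, next 284). The early falls of *Tek*, *Pla1a*, *Lvrn* and *Ptgs1* kept their calls when any 1 library was left out.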

How the results depend on the processing

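Late AVFs held the largest share of Pi16 fibroblasts under each setting tried. Among fibroblasts of late AVFs the share was 29.6% with at least 5 *Pi16* UMIs and 25.6% with *Pi16* at least 0.05% of UMIs (9.12% of kept barcodes). Without limits on the 3 gene groups, shares in veins, early and late AVFs were 7.91%, 2.38% and 23.3% of kept barcodes and 29.5%, 18.1% and 65.4% of fibroblasts. Thinning gave 3.17% of kept barcodes and 7.30% of fibroblasts in veins and 28.5% of fibroblasts in late AVFs. Thinning without the limits, chosen after seeing the data as were the settings on the gene maximum and on 30 *Pi16* UMIs, gave 17.6%, 2.30% and 22.8% of kept barcodes and 40.5%, 17.0% and 53.9% of fibroblasts.

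Signs turned for *Cenpa* late over early (0.75 with 5 *Pi16* UMIs, 0.11 with 0.05%), *Tgm2* late over vein (−0.0798 without the limits) and *Mki67* late over early (0.0792 without the gene maximum). The cause was not tested. Genes higher in early than vein cells numbered 361 with *Pi16* at 0.05%, and 285, with 581 lower, at 50 UMIs. Median-ratio scaling gave 1169 higher and 809 lower for late over vein and 549 and 336 for late over early. Leading genes were 25 at 50 UMIs, a stricter minimum. Of the Pi16 markers, 3 were higher late over early with *Pi16* at 0.05%, and 6 were lower late over vein under median-ratio scaling. Without the limits, 1 was higher and 7 lower in early, 3 lower in late and 0 lower late over early. With 30 *Pi16* UMIs, 1 was higher and 7 lower in early and 1 higher late over early.

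In bulk, the DESeq2 Wald test called *Pi16* in early AVFs (−1.996) and late against early (2.39). It called 2 leading genes higher in early, 2 higher and 5 lower in mid, 1 higher in late, and 6 higher and 1 lower late against early. In mid AVFs 2 were higher with filterByExpr and 1 with no filter. Late against early, 0 were higher with DESeq2 size factors, a sex term, filterByExpr or no filter.

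Leaving out 1 library gave *Pi16* fold changes of −2.50 to −1.73 in early, −0.20 to 0.17 in mid, 0.15 to 0.57 in late and 2.09 to 2.81 late against early. Leading genes called numbered 1 to 2 higher and 7 to 11 lower in early, 0 to 1 and 2 to 4 in mid, 0 to 1 and 1 to 3 in late, and 0 to 5 and 0 to 0 late against early. Pi16 markers called were 5 to 9 lower in early, 0 to 2 higher and 1 to 1 lower in mid, 0 to 1 higher and 1 to 1 lower in late, and 0 to 5 higher late against early. Fold changes ran from −0.0798 to 0.33 for *Antxr2* in mid, −0.56 to 0.0531 for *Pla1a* in late and −0.29 to 0.0499 for *Ptgs1* late against early. No paired analysis was possible because the bulk groups share no replicate numbers and each single-cell group is 1 library. The 22 early AVF cells limit what depth can show there.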
